A study of Rattus norvegicus with 2 samples.

Results

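Short-span circRNAs were taken as the rows of the circRNA table whose back-splice junction ends lay at most 500 nt apart on the genome, counted as end minus start plus 1. They numbered 590 of 4734 circRNAs, or 12.5%, and the remaining 4144 had longer spans. No expression value entered this choice. Lung tissue of SD rats was sequenced at 24 h after intratracheal spray of PBS (Sham) or of lipopolysaccharide (LPS) at 2 mg/kg, which is used as a rat model of acute lung injury. The sample labels describe 12 rats divided between the groups, total RNA depleted of ribosomal RNA and digested with RNase R, and 1 library for each group. Whether a library held RNA of 1 rat or of a pool is not given in the sources used here, so the libraries were compared without a replicate check and without a test.

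A circRNA is a closed RNA loop that forms when the splicing machinery joins the end of a downstream exon back to the start of an upstream exon, or of the same exon. The loop has no free end, which makes it resistant to RNase R, an exonuclease that digests linear RNA. A circRNA of short genomic span holds a single exon or a few closely spaced ones, and it is detected only by reads that cross its back-splice junction. The gene in which the junction lies is called its host, and a host can give rise to several circRNAs.

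The value of each circRNA was its junction reads per 1000000 of the library (CPM), without a correction for length. Depth was 38112 junction reads for Sham, where a read was worth 26.2 CPM, and 52505 for LPS, where it was worth 19.0 CPM. The lowest listed value was 2 reads. A value of 0.001 stood for a circRNA that was not listed in a library and covered 0 or 1 read. By the one-sided 95% Poisson limit of 1 read, such an entry can stand for as many as 4.74 reads, equal to 124 CPM for Sham and 90.4 CPM for LPS. A fold given below as "at least" sets the listed CPM of the other library against this limit. It leaves out the counting error of the listed value, so the true fold can be smaller. All intervals below are 95% intervals and cover counting error only, because amplified reads that carry no molecular identifier do not count separate molecules. Ratios on the log2 scale are LPS over Sham after 0.5 reads were added to each value, with 0.001 taken as 0 reads.

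The spans ran from 137 to 496 nt, with a median of 257 nt and quartiles at 173 and 358 nt. The remaining circRNAs had a median span of 5537 nt. Of the short-span circRNAs, 200 spanned at most 200 nt and 66 at most 150 nt. The shortest was a 137 nt circRNA of Dip2b, not listed in the Sham library and at 4 reads in the LPS library. It was followed by 138 nt circRNAs of Sirt7, which encodes a deacylase of the sirtuin family, with 20 Sham and 16 LPS reads, and of Eln, which encodes elastin, with 2 Sham reads and no LPS value. Just inside the limit lay circRNAs of Chsy1 at 496 nt with 24 Sham and 76 LPS reads, of Prrc2b at 496 nt with 4 LPS reads only, and of Pabpc1 at 495 nt with 2 Sham reads only. Just outside it lay those of Tubgcp4 at 503 nt with 12 and 23 reads, of Herc4 at 503 nt with 2 and 4 reads, and of Hnrnpul2 at 504 nt with 3 Sham reads only. Spans divisible by 3 made up 38.5% of the short-span circRNAs (227) and 33.8% of the remaining ones. Where Sham and LPS reads summed to 10 or more, 66 of 203 short-span circRNAs had such a span, which is not above 33.8%. The larger share was thus not seen in the better-read part of the set.

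Most short-span circRNAs were seen in a single library. In both libraries 182 were listed (30.8%), in the Sham library alone 228 (38.6%), and in the LPS library alone 180 (30.5%). Among the remaining circRNAs these shares were 38.0%, 31.5% and 30.5%. Presence in both libraries differed along the span. It was 14.5% for spans up to 200 nt (29 of 200), 42.1% for 201 to 300 nt (72 of 171), 36.4% for 301 to 400 nt (44 of 121) and 37.8% for 401 to 500 nt (37 of 98). The lower share in the short-span set thus lay in its shortest class, whose circRNAs also had fewer reads, with a median of 4 over both libraries against 7 for 201 to 300 nt. The medians over all short-span and all remaining circRNAs were both 5 reads.

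In the Sham library the listed short-span circRNAs had a median of 4 reads (105 CPM), and in the LPS library a median of 7 reads (133 CPM). The remaining circRNAs had a median of 5 reads in either library, which is 131 CPM in Sham and 95.2 CPM in LPS. Short-span circRNAs seen only in Sham were mostly at the bottom of the range, with 139 of 228 (61.0%) at 3 reads or fewer. Of those seen only in LPS, 77 of 180 (42.8%) were as low. Among the remaining circRNAs the same shares were 59.2% and 57.6%.

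Short-span circRNAs held 4273 of the Sham reads, a share of 11.2% (Wilson interval 10.9 to 11.5%), and 7206 of the LPS reads, a share of 13.7% (13.4 to 14.0%). The intervals of the libraries did not overlap, but with 1 library per group a difference between libraries and a difference between conditions cannot be told apart. In bulk tissue, moreover, fewer cells of a type and less RNA per cell cannot be told apart. Without the circRNA of Med13l, the most-read of the set, the shares were 11.0% (10.7 to 11.3%) and 12.8% (12.6 to 13.1%). The share was higher in LPS in each of the 4 span classes, from 1.78% to 2.04% for up to 200 nt, 4.35% to 5.81% for 201 to 300 nt, 3.10% to 3.54% for 301 to 400 nt and 1.98% to 2.34% for 401 to 500 nt. In narrower bins the order was not uniform, and the share was lower in LPS for 101 to 150 nt (0.551% against 0.409%), 351 to 400 nt (2.02% against 1.74%) and 401 to 450 nt (1.10% against 1.08%, with overlapping intervals). The next longer circRNAs also held a larger share in LPS, at 9.57% against 11.2% for 501 to 1000 nt and 11.9% against 14.4% for 1001 to 2000 nt. A larger LPS share was therefore not limited to the 500 nt set.

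**Figure D1:**
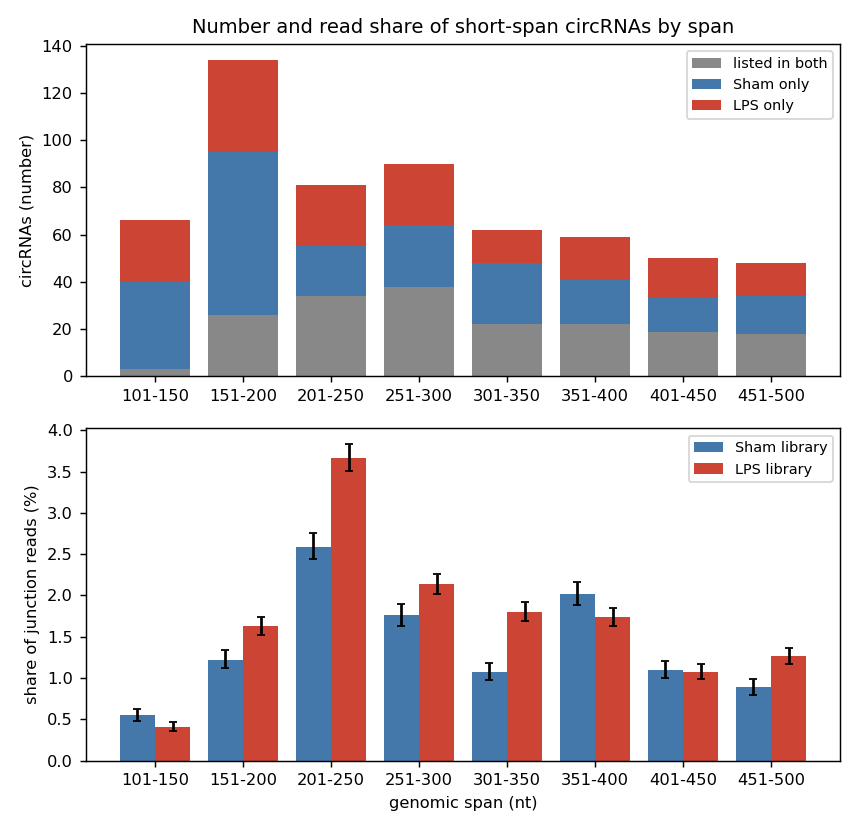
Number of short-span circRNAs in bins of 50 nt of genomic span (top, bars divided into circRNAs listed in both libraries, in Sham only and in LPS only) and their share of all junction reads in each library in percent (bottom, error bars are 95% Wilson intervals). Few circRNAs of 101 to 150 nt were listed in both libraries, and the bin of 201 to 250 nt held the largest read share in both libraries.

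The reads were concentrated in a few circRNAs. The 10 most-read short-span circRNAs held 22.8% of the short-span reads in Sham and 29.5% in LPS. The first was a 238 nt circRNA of Med13l (chr12:43576497-43576734, build rn6 as for all positions here), whose host encodes a subunit of the Mediator kinase module. It had 87 Sham reads, or 2283 CPM (1851 to 2815), and 466 LPS reads, or 8875 CPM (8108 to 9714), a ratio of 3.89 (3.09 to 4.95). It was the most abundant short-span circRNA in LPS but not in Sham.

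Hdac4, a class IIa histone deacetylase, hosted the most abundant short-span circRNA of the Sham library (chr9:99266783-99267021). It had 217 Sham reads, or 5694 CPM (4987 to 6501), and 305 LPS reads, or 5809 CPM (5194 to 6496). The circRNA of Plxnd1, a semaphorin receptor (chr4:147869323-147869704), had 210 Sham reads, or 5510 CPM (4815 to 6305), and 274 LPS reads, or 5219 CPM (4637 to 5872). Both had ratios whose intervals included 1, at 1.02 (0.854 to 1.22) and 0.947 (0.788 to 1.14). The same held for the circRNA of Aebp1, a secreted protein of the extracellular matrix (chr14:86104151-86104632), with 2178 and 1733 CPM and a ratio of 0.796 (0.585 to 1.08). The direction of these 3 small ratios depended on the scale, as Plxnd1 and Aebp1 became positive, at 0.38 and 0.13 on the log2 scale, when the median of all circRNAs listed in both libraries was set to 0, and Hdac4 became negative, at -0.40, when that of the well-read circRNAs was.

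Several of the abundant circRNAs were higher in the LPS library. Abhd16a, a phospholipid lipase (chr20:5090501-5090805), had 72 Sham and 280 LPS reads, or 1889 CPM (1501 to 2378) and 5333 CPM (4745 to 5993), a ratio of 2.82 (2.17 to 3.71). Elf2, an ETS-family transcription factor (chr2:140366057-140366222), had 16 and 163 reads, or 420 CPM (258 to 682) and 3104 CPM (2664 to 3618), a ratio of 7.39 (4.42 to 13.2). Dhrs11, a short-chain dehydrogenase (chr10:72147777-72148017), and Tead1, a transcription factor of the Hippo pathway (chr1:177569617-177569872), stayed under 2-fold, with ratios of 1.45 (1.15 to 1.84) and 1.52 (1.08 to 2.18). These small ratios depended on the scale. Dhrs11 and Tead1 were 0.10 and 0.17 on the log2 scale with the median of the well-read circRNAs set to 0. They were 0.997 and 1.06 with that of all circRNAs listed in both libraries. Gab1, an adaptor of receptor tyrosine kinases (chr19:30869716-30870010), was lower in LPS, with 128 and 62 reads, or 3359 CPM (2826 to 3992) and 1181 CPM (921 to 1513), which is 2.84-fold lower (2.08 to 3.92). The circRNA of Dock6, also among the 10, was not listed in Sham.

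**Figure D2:**
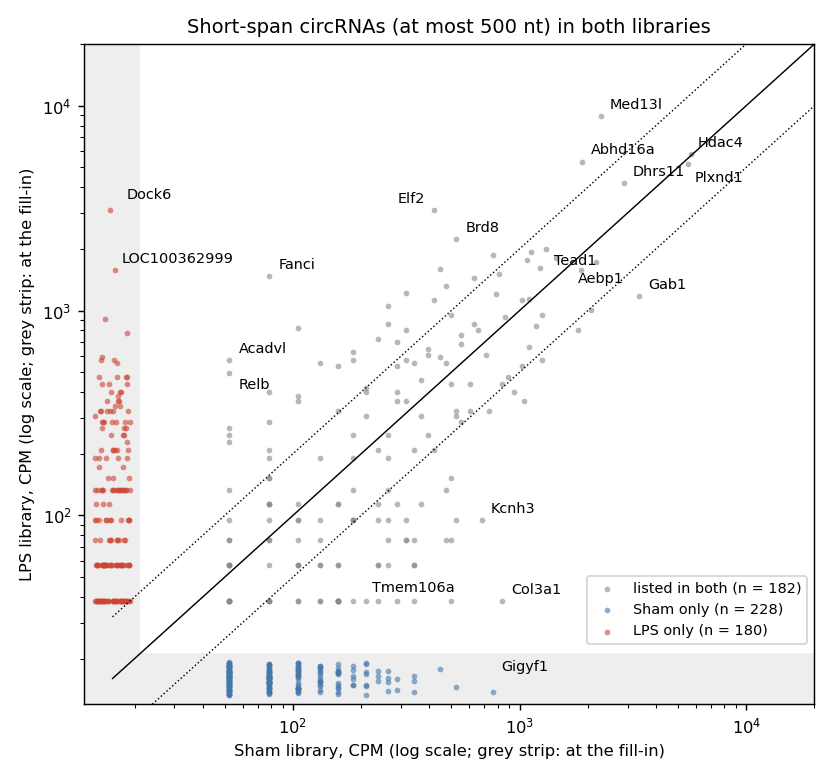
CPM of each of the 590 short-span circRNAs in the Sham library (horizontal, log scale) and the LPS library (vertical, log scale), with circRNAs not listed in a library placed in the grey strip with random spread. The solid line marks equal CPM and the dotted lines a 2-fold difference. Med13l lies at 2283 and 8875 CPM, Gab1 below the lower dotted line, and Dock6 at 3104 CPM in the strip of circRNAs not listed in Sham.

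A circRNA was counted as higher or lower in LPS at a ratio of at least 2-fold. Of the short-span circRNAs, 213 (36.1%) were higher and 277 (46.9%) lower, beside 35.7% higher and 43.3% lower over all 4734 circRNAs. The other 100 did not reach 2-fold, while 79% of all circRNAs reached it in either direction. The share higher was thus near the background and the share lower a few points above it. The remaining circRNAs had 35.6% higher and 42.8% lower. These counts were made up largely of circRNAs seen in a single library, since only 33 of the 182 listed in both were higher and 49 lower. Taking an unlisted value as 1 read instead of 0 gave 136 higher and 277 lower. The median log2 ratio was -0.76 in the short-span set and -0.46 over the remaining circRNAs. Since the depths differ, -0.46 is also the log2 ratio of a circRNA whose read number was the same in Sham and LPS.

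The order was the reverse once a minimum of 10 reads, summed over Sham and LPS, was set. Of the 203 short-span circRNAs that reached it, 88 (43.3%) were higher in LPS and 46 (22.7%) lower, with a median log2 ratio of 0.61. Over all 1580 such circRNAs the shares were 29.1% higher and 29.6% lower, and over the 1377 remaining ones 26.9% and 30.6%, with a median of -0.19. Those that reached the minimum through a single library had to differ, and they were 56 from LPS and 12 from Sham in the short-span set. In the 135 that had reads in both libraries, 32 were higher and 34 lower, with a median of 0.05. The 1144 remaining circRNAs of that kind had 200 higher and 360 lower and a median of -0.34. At 50 reads or more the sets lay close together, with 16 of 49 short-span circRNAs higher and 6 lower (median 0.43) and 87 of 283 remaining ones higher and 34 lower (median 0.47). Thus 56 of the 88 higher short-span circRNAs were listed only in LPS.

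**Figure D3:**
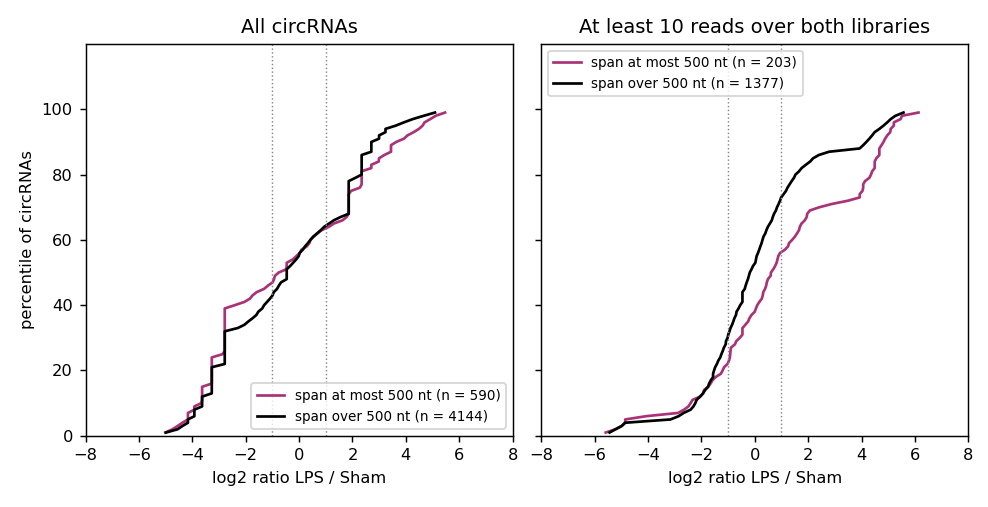
Percentile curves of the log2 ratio LPS over Sham for short-span circRNAs and for those spanning over 500 nt, over all circRNAs (left, n = 590 and 4144) and over those with at least 10 reads in both libraries together (right, n = 203 and 1377); dotted lines mark 2-fold. On the left the short-span value is -2.78 against -1.74 for the longer ones at percentile 36, and 3.64 against 2.71 at percentile 90. The medians there are -0.76 and -0.46. On the right the short-span curve is shifted to higher ratios over most percentiles, with a median of 0.61 against -0.19. On the right, 56 short-span circRNAs reached the minimum through LPS alone and 12 through Sham alone. The 135 with reads in both libraries had a median of 0.05.

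Among short-span circRNAs with reads in both libraries, the largest ratio was that of Fanci, a protein of the Fanconi anemia DNA repair pathway (chr1:141127539-141127840). It had 3 Sham reads, or 78.7 CPM (26.8 to 231), and 77 LPS reads, or 1467 CPM (1174 to 1832), and was 18.6-fold higher (6.14 to 92.3). Acadvl, the very long-chain acyl-CoA dehydrogenase of mitochondrial fatty acid oxidation (chr10:56620445-56620689), had 2 and 30 reads, a ratio of 10.9 (2.76 to 94.0). Relb, a subunit of the transcription factor NF-kB (chr1:80524238-80524500), had 2 and 26 reads, a ratio of 9.44 (2.36 to 82.0). In these 3 the Sham value was 2 or 3 reads, so the size of the ratio was poorly bounded although its lower limit stayed above 2.

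Brd8, a bromodomain protein of a histone acetyltransferase complex (chr18:27412774-27413116), had 20 Sham reads, or 525 CPM (340 to 810), and 117 LPS reads, or 2228 CPM (1860 to 2670), a ratio of 4.25 (2.63 to 7.21). Asap3, an Arf GTPase activator (chr5:154577634-154577932), had 4 and 43 reads and a ratio of 7.80 (2.84 to 29.9). Nxf1, the main export receptor of mRNA, had 3 and 21 reads (ratio 5.08, 1.52 to 26.6), and Mbd6, a methyl-CpG-binding domain protein, had 2 and 14 reads (5.08, 1.17 to 46.1). Brd8, with the most Sham reads of these 4, had the narrowest interval, and the lower limits of Nxf1 and Mbd6 fell below 2. The hosts of the 8 largest ratios thus ranged over DNA repair, metabolism, transcription and RNA export.

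In the other direction the largest ratio was that of Col3a1, the chain of type III collagen (chr9:52047737-52048142). It had 32 Sham reads, or 840 CPM (595 to 1185), and 2 LPS reads, or 38.1 CPM (10.4 to 139), and was 22.0-fold lower in LPS (5.62 to 190). Tmem106a (chr10:89490010-89490298) had 19 and 2 reads and was 13.1-fold lower (3.16 to 116). Fhod1, a formin that acts on actin filaments (chr19:37292239-37292396), had 13 and 2 reads and was 8.95-fold lower (2.03 to 81.7). Each of the 3 had an LPS value of 2 reads, the lowest that was listed.

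Kcnh3, a voltage-gated potassium channel (chr7:140828965-140829261), had 26 Sham reads, or 682 CPM (466 to 999), and 5 LPS reads, or 95.2 CPM (40.7 to 223), and was 7.16-fold lower (2.71 to 23.9). The transcription factor Gtf2i with 11 and 2 reads was 7.58-fold lower (1.65 to 70.3), Pcmtd1 with 19 and 4 reads 6.54-fold lower (2.17 to 26.4), and Pde8a, a cAMP phosphodiesterase, with 13 and 3 reads 5.97-fold lower (1.64 to 32.7). A circRNA with no assigned gene name (chr5:105114416-105114740) had 18 and 4 reads and was 6.20-fold lower (2.04 to 25.2). None of these 8 exceeded 34 reads over both libraries. Of the 8 higher ones, Elf2, Brd8, Fanci and Asap3 did, with 179, 137, 80 and 47 reads, while Acadvl, Relb, Nxf1 and Mbd6 lay between 16 and 32.

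Among short-span circRNAs not listed in Sham, Dock6, a guanine nucleotide exchange factor (chr8:22862817-22863273), stood apart with 163 LPS reads, or 3104 CPM. Set against the limit of 4.74 Sham reads, it was at least 24.9-fold higher in LPS. LOC100362999 (chr6:59301040-59301308) followed with 83 reads, or 1581 CPM, at least 12.7-fold higher. Tkt, the transketolase of the pentose phosphate pathway (chr16:6613352-6613526), had 48 reads (914 CPM, at least 7.34-fold higher), Ccrn4l, which encodes nocturnin (chr2:140302718-140302987), 41 reads (781 CPM, at least 6.27-fold), and Plekha2 (chr16:71764081-71764292) 31 reads (590 CPM, at least 4.74-fold). In all, 19 of the 590 short-span circRNAs had 20 or more LPS reads without a Sham value, beside 63 of the 4144 remaining circRNAs. The share was thus larger in the short-span set.

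In the other direction, 2 of the 590 short-span circRNAs had 20 or more Sham reads without an LPS value, beside 11 of the 4144 remaining ones. Gigyf1 (chr12:22238126-22238269) had 29 reads, or 761 CPM (530 to 1093), at least 8.42-fold lower in LPS, and a circRNA with no assigned gene name (chrX:119152559-119152714) had 20 reads, or 525 CPM, at least 5.81-fold lower. Eln (chr12:25016512-25016857) had 17 reads (446 CPM, at least 4.94-fold lower). The receptor phosphatase Ptpra (chr3:123077758-123078115), Cpsf1, a subunit of the mRNA cleavage and polyadenylation complex (chr7:117663396-117663537), and a circRNA with no assigned gene name (chr2:157012010-157012226) each had 13 reads (341 CPM, at least 3.78-fold lower). The LPS library was the deeper one, so a circRNA of equal CPM had more reads there.

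**Figure D4:**
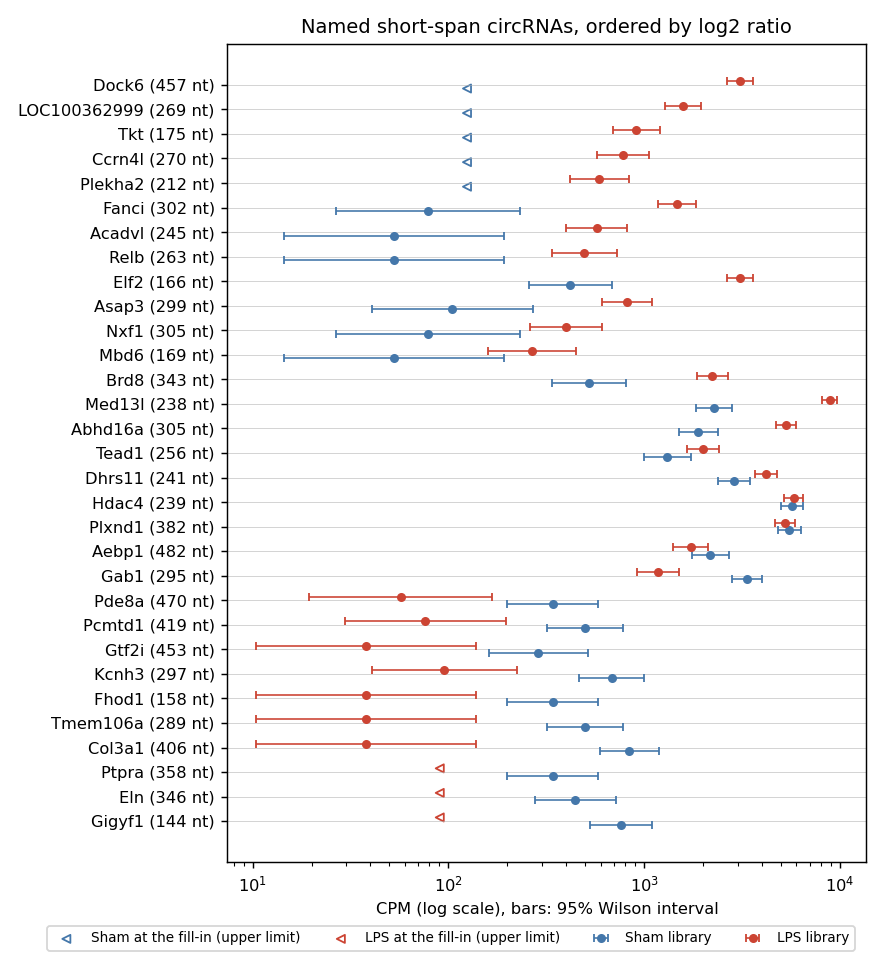
CPM (log scale) of named short-span circRNAs in the Sham and LPS libraries, ordered by log2 ratio, with genomic span in nt beside the host gene; horizontal bars are 95% Wilson intervals and open triangles mark the upper limit of a value that was not listed (124 CPM in Sham, 90.4 CPM in LPS). The intervals of Hdac4, Plxnd1 and Aebp1 overlap between libraries, whereas those of Med13l, Elf2, Abhd16a and Gab1 do not.

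A single host gene could be assigned to 516 of the 590 circRNAs, 71 had none and 3 had several. The host field of 127 (21.5%) listed names of small RNA families, as it did for 18.5% of the remaining circRNAs. Of these 127, 69 were among the 71 without an assigned gene. The 516 circRNAs came from 471 genes, of which 434 had 1 short-span circRNA and 37 had several. They lay on 22 chromosomes, with the most, 89, on chromosome 1. Longer circRNAs were listed for 168 of the 471 hosts, and the other 303 hosts, with 322 short-span circRNAs, had no longer one in the table. Of the 168, the short-span circRNAs together had more reads than the longer ones in 59, fewer in 100 and equal reads in 9.

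Cpsf1 and Eln had the most short-span circRNAs, with 4 each. All 4 of Eln were listed in Sham only, with 17, 8, 5 and 2 reads. Those of Cpsf1 had 13 and 0, 7 and 2, 2 and 0, and 0 and 2 reads in Sham and LPS, where 0 stands for not listed. Col3a1 had 3, with 32 and 2, 7 and 0, and 3 and 0 reads. Each of the 3 had the higher value in Sham, as had 3 of the 4 of Cpsf1. The entries of 3 and 0 and of 2 and 0 reads do not fix a direction, as an unlisted value can stand for 4.74 reads. For Cpsf1 with 7 and 2 reads the ratio was 0.207 (0.021 to 1.09). Acadvl and Adgre5, an adhesion receptor of leukocytes, had 3 each that did not share a direction, with 2 and 30, 10 and 5, and 5 and 0 reads in Acadvl and 13 and 29, 5 and 0, and 0 and 3 in Adgre5. Gigyf1 also had 3, with 29 and 0, 3 and 0, and 0 and 3 reads.

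Short-span circRNAs were compared with the longer circRNAs of the same gene in the 47 hosts that had at least 10 reads of each kind. The log2 ratios had the same sign in 29 of 47, and the median was 0.21 for short-span and 0.01 for longer circRNAs. Over these hosts Pearson's r was 0.29 and Spearman's rho 0.25, given as a description since all points come from the same 2 libraries. Short-span circRNAs were at least 2-fold higher in LPS in 15 hosts, of which 3 had longer circRNAs that were also higher, and lower in 16, of which 6 had longer ones that were also lower. Over all 47 hosts the longer circRNAs were at least 2-fold higher in 10 and lower in 12. The matches of 3 of 15 and 6 of 16 are to be read beside these numbers. Most 2-fold differences of short-span circRNAs had no match, and longer circRNAs passed 2-fold in a minority of the hosts.

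The collagen hosts had both kinds lower in LPS. Col3a1 had 42 Sham and 2 LPS reads in its short-span circRNAs and 28 and 0 in its longer ones. Col4a1, a chain of basement membrane collagen, had 11 and 0 and 30 and 0. Eln had 32 and 0 reads in short-span circRNAs, while its 17 longer circRNAs had 299 and 206. Both kinds of Eln were thus lower in LPS, where the short-span ones were unlisted and the longer ones still listed.

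Other hosts had unequal values by kind. Fcho2, a protein of clathrin-mediated endocytosis, had 0 and 23 reads in its short-span circRNA and 307 and 504 in the longer one. Gtf2i had 11 and 2 reads beside 692 and 1066 in 14 longer circRNAs. Riok1, an atypical protein kinase, had 24 and 45 reads in the short-span circRNA and 0 and 103 in the longer one. Med13l had 87 and 466 reads beside 83 and 138, and Elf2 16 and 163 beside 89 and 222. In Med13l and Elf2 the log2 ratio of the short-span circRNA, 1.95 and 2.85, was above that of the longer ones, 0.27 and 0.85.

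Both kinds passed 2-fold in opposite directions in 5 hosts. Pde8a had 13 and 3 reads in the short-span circRNA and 13 and 110 in the longer one. Ints8 had 9 and 2 beside 3 and 26, and Ltbp1, which binds latent TGF-beta in the matrix, 9 and 3 beside 9 and 36. In the other direction, Pik3c2a, a phosphoinositide kinase, had 10 and 45 beside 46 and 21, and Rbbp6 had 0 and 11 beside 13 and 4. In Ints8, Ltbp1 and Rbbp6 the short-span circRNA had at most 12 reads over both libraries, against 16 in Pde8a and 55 in Pik3c2a.

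**Figure D5:**
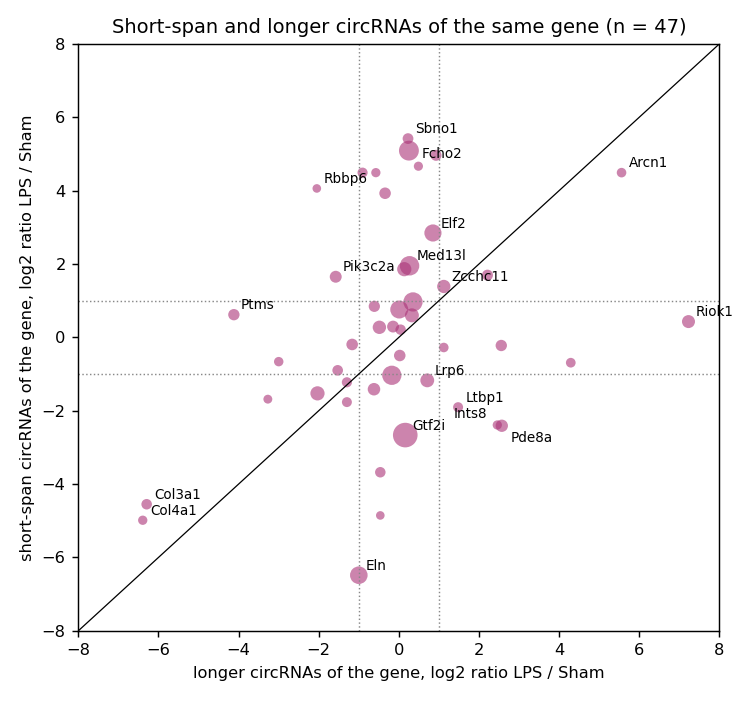
Log2 ratio LPS over Sham of the summed short-span circRNAs (vertical) against that of the summed longer circRNAs (horizontal) for the 47 host genes with at least 10 reads of each kind; point size grows with total reads, the solid line marks equality and dotted lines 2-fold. Points scatter widely about the line, with Col3a1 and Col4a1 far below 0 on both axes and Eln farther below 0 for its short-span circRNAs than for its longer ones.

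In position, 92 short-span circRNAs (15.6%) shared a junction end with a longer circRNA, 54 at the start coordinate and 46 at the end coordinate, with 8 at both. An end was shared with another short-span circRNA by 24. Those that shared an end with a longer circRNA had a median of 8 reads and were listed in both libraries in 48.9% of cases. The 498 that shared none had a median of 5 reads and were listed in both in 27.5%. Hnrnph1, which encodes an RNA-binding splicing regulator, had a pair of short-span circRNAs with one end in common (chr10:35876034-35876397 and chr10:35876013-35876397). They had 39 and 59 reads and 42 and 35 reads, so the one was 0.13 and the other -0.72 on the log2 scale.

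Host groups were formed by gene name patterns that do not take in every gene of a group. Aebp1, Ehmt2, a histone methyltransferase, with 47 and 85 reads, and Sirt7, for example, lay outside the matrix and chromatin patterns (genes chosen after their values were seen), and none of their best-read circRNAs passed 2-fold. Counts are given beside the background of 35.7% higher and 43.3% lower. With unlisted values as 1 read, the whole short-span set had 136 higher and 277 lower of 590. Hosts among chromatin and histone modifiers had 19 short-span circRNAs, of which 13 were higher in LPS and 2 lower (median log2 ratio 1.86), whereas the longer circRNAs of this group had 32 of 118 higher and 58 lower. Of the 19, however, 10 had 3 reads or fewer, and taking unlisted values as 1 read left 3 higher and 2 lower. The best-read within the pattern were Hdac4 with 217 and 305 reads, Brd8 with 20 and 117, and Smarca2, an ATPase of chromatin remodelling, with 45 and 44. Only Brd8 of these passed 2-fold.

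Splicing and RNA-binding proteins hosted 26, with 4 higher and 12 lower (median -0.83), and their longer circRNAs had 37 of 121 higher and 56 lower. Of the 11 with at least 10 reads, none was higher and 4 were lower. At that minimum the shares were 43.3% higher and 22.7% lower in the short-span set, and 29.1% and 29.6% over all circRNAs. The short-span shares rest in part on entries seen in a single library, 56 in LPS and 12 in Sham. Without these entries, 32 of 135 (23.7%) were higher and 34 (25.2%) lower. The contrast with 43.3% is therefore not read as a trait of splicing hosts. With unlisted values as 1 read, 1 of the 26 was higher and 12 lower. Actin, microtubule and motor proteins hosted 18, with 3 higher and 11 lower (median -2.31), and 28 of 85 higher and 40 lower among the longer ones. Their best-read were Myo1f with 15 and 32 reads and the spectrin Sptan1 with 16 and 11, neither past 2-fold, and the kinesin Kif5b with 0 and 15 (at least 2.30-fold higher). The Wilson lower limit of Kif5b in LPS was 173 CPM, beside the limit of 124 CPM in Sham, and these limits lay less than 2-fold apart. Of the 11 lower ones, 1 had at least 10 reads. With unlisted values as 1 read, 2 of the 18 were higher and 11 lower.

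The pattern of extracellular matrix and integrin genes took in 24 short-span circRNAs, none of over 34 reads, of which 10 were higher and 14 lower (median -2.42). With unlisted values as 1 read, 6 were higher and 14 lower. Besides Col3a1 and Eln, the pattern held Tnxb, a tenascin, with 25 LPS reads only (at least 3.83-fold higher), and the leukocyte integrin Itgal with 23 LPS reads only (at least 3.52-fold). The longer circRNAs of the group had 24 of 84 higher and 47 lower. Innate immune and NF-kB genes hosted 9, with 6 higher and 2 lower (median 1.86), of which 5 had 3 reads or fewer. The group held Map4k1, a kinase of lymphocyte signalling, with 71 and 83 reads (ratio 0.849, 0.611 to 1.18), Relb, and the adaptor Traf4 with 0 and 17 (at least 2.60-fold higher). With unlisted values as 1 read, 3 of the 9 were higher and 2 lower.

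Guanine exchange factors and GTPase activators hosted 18, with 8 higher and 7 lower and with 73 Sham and 368 LPS reads in sum, of which Dock6 alone held 163. With unlisted values as 1 read, 4 were higher and 7 lower. Arhgap10 had 43 and 101 reads (ratio 1.70, 1.18 to 2.50). Ubiquitin ligases and deubiquitinases hosted 16 (7 higher and 7 lower, or 5 and 7 with unlisted values as 1 read), among them Cbl with 7 and 30 (ratio 3.11) and Rnf10 with 21 LPS reads only (at least 3.21-fold higher). Kinases and phosphatases hosted 16 (7 higher and 7 lower, or 4 and 7), including Riok1 and Pik3c2a (ratio 3.27). Membrane transporters and ion channels hosted 17 (7 higher and 4 lower, or 2 and 4), including Slc18b1 with 27 and 32 reads and Slc29a1, a nucleoside transporter, with 11 and 28. Zinc-finger proteins hosted 14 (6 higher and 7 lower, or 4 and 7), with Zcchc11, an RNA uridylyltransferase, at 16 and 59 reads (ratio 2.68), the palmitoyltransferase Zdhhc5 at 6 and 28 (3.39) and Zfp385d at 0 and 20 (at least 3.06-fold higher). The second pair of counts in each of these groups takes unlisted values as 1 read. In all 5 it had fewer higher than lower circRNAs, as did the whole short-span set with 136 and 277 of 590. Since the depths differ, 2 Sham reads alone (Pabpc1) gave -1.20 at that setting and 4 LPS reads alone (Prrc2b) gave 1.12. The pattern is therefore not read as a trait of these groups.

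Genes that mark cell types of the lung hosted 7 of the 590 short-span circRNAs. Of the 4144 remaining circRNAs they hosted 9 (epithelium), 15 (endothelium) and 5 (macrophage or neutrophil). Lung epithelial genes hosted 3 short-span circRNAs, of the surfactant proteins Sftpc and Sftpd with 3 and 2 Sham reads only, and of Etv5 with 2 LPS reads only. Endothelial genes hosted 3, of Calcrl and Erg with 3 and 2 Sham reads only, and of Vwf with 3 LPS reads only. The macrophage and neutrophil list had 1, of the integrin Itgam with 3 LPS reads. All 7 lay at or under 3 reads, and circRNA reads do not measure the mRNA of these genes, so the labelled tissue could not be checked from them.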

How the data were processed

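The authors deposited 1 table of circRNAs with junction positions, host names and a value per library headed TPM. The deposited values were read as CPM, because each column sums to 1000000 in equal steps whatever the span. All listed values (100%) were whole multiples of 1 read within 0.01 reads. The submitters' processing notes name CASAVA 1.8, BWA and build rn6. The methods name Cufflinks and R for expression. The circRNA caller and pooling of rats are not given in the sources used here. The methods describe a SmartPCR kit with RsaI digestion, whereas the labels describe ribosomal RNA removal, RNase R and a strand-marked library. Counting error at 38112 and 52505 reads limited precision, and the spread between rats or libraries could not be estimated.

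Read numbers served depth, Wilson intervals and the 0.5 reads added before log2 ratios. Intervals of ratios are Clopper-Pearson intervals of the LPS share of the reads of a circRNA, scaled by depth. They compare the libraries, not the conditions. No count test was run, as there was 1 library per group. Names of small RNA families were dropped from host fields, as were 13 gene names whose circRNAs lay over more than 500 kb and more than 10 times the gene length, or without a matched length. Of 471 host names, 458 matched the GRCr8 gene table, used for names only, 457 on the same chromosome. Sequences of the circRNAs were not analysed here.

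Members, gene lists and rules were chosen with earlier results of these data known. Named were the 10 most-read circRNAs, the 8 largest ratios in each direction with reads in both libraries and at least 10 over both, the 5 most-read in each direction seen in 1 library (with a tie), the 3 shortest, the 3 on either side of the limit, the 3 most-read per host list and the circRNAs of the 5 hosts with most (of 4 hosts tied at 3, those with more reads). Chosen after seeing the data were the span classes, the rule for widely spread names, the 20-read counts, the restriction to circRNAs listed in both libraries, the removal of Med13l, list counts with unlisted values as 1 read, and the hosts named in the comparison by kind. Some circRNAs that the naming rule takes are not reported here. Steps were tested on simulated data. Calculations used scipy 1.17.1 and pandas 2.3.3 on numpy 2.4.6 under Python 3.11.15, with figures from matplotlib 3.10.9.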

Additional observations from a re-analysis of the deposited data

How the results depend on the processing

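The 213 short-span circRNAs higher in LPS became 136 with unlisted values taken as 1 read (277 lower), 88 at 10 reads or more (46 lower), 138 for spans up to 300 nt (180 lower) and 357 for spans up to 1000 nt. A 4-fold threshold gave 145 higher and 243 lower. The median log2 ratio of the short-span set, -0.76, was -0.30 with the median of circRNAs listed in both libraries as the scale, -1.19 with that of circRNAs of at least 50 reads, 0.61 at 10 reads or more, which reversed it, -0.46 with a single host name, -0.89 up to 300 nt and -0.46 up to 1000 nt. That of the remaining circRNAs, -0.46, was 0, -0.89 and -0.19 under the first 3 of these. The medians subtracted on these scales were -0.46 and 0.43, so the first raised every ratio and the second lowered it. The Sham read share of 11.2% was 6.13% up to 300 nt, 20.8% up to 1000 nt, 9.70% with a single host name and 10.6% without its most-read circRNA, and the LPS share of 13.7% was 7.84%, 25.0%, 12.0% and 12.8%. A single host name here means 1 name of any kind in the host field. It covers 465 short-span circRNAs, not the 516 with 1 assigned gene.

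Of 80 named circRNAs under 4 alternatives, 298 values kept their direction and their side of 2-fold, 8 dropped under it, 8 passed it and 6 reversed. With the scale of circRNAs listed in both libraries, Plxnd1 was 0.38, Aebp1 0.13, Map4k1 0.22 and Slc18b1 0.24. With that of circRNAs of at least 50 reads, Hdac4 was -0.40 and Hnrnph1 (35876034) -0.30. The causes were not tested.

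No paired analysis was possible because there was 1 library for Sham and 1 for LPS, and no replicate was left out for the same reason. At these depths an unlisted value is bounded only by 124 CPM in Sham and 90.4 CPM in LPS, so circRNAs of few reads seen in a single library were not shown to differ.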
